A study of Homo sapiens with 9 samples.

Results

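The transcripts of the proximal MYC network were followed in HEK293T, a cell line from human embryonic kidney into which the SV40 large T antigen was introduced. The network was represented by 10 genes taken by name: MYC, its partner MAX, the repressors MXI1, MXD1, MXD3, MXD4, MNT and MGA, and the parallel pair MLX and MLXIP. They are 10 of the 58735 genes counted, and all 10 passed the low-count filter, which left 18088 genes. The members, and the lists used below, were chosen with earlier results of these data known. Counts and medians over them may in part reflect that choice. Poly-A RNA was sequenced from 9 libraries: 3 of cells transfected with an siRNA against PHF12, 3 with an siRNA against SUDS3 and 3 with a commercial negative control siRNA. Each siRNA was used at 10 nM for 36 h with the same lipid reagent, so the controls were transfected too. The labels name 1 siRNA for each target, so the loss of a target and any other action of that siRNA cannot be told apart. Nor do they state that replicates came from separate cultures, and the p-values therefore measure the spread between these libraries, which may be technical.

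MYC and MAX form a heterodimer that binds the E-box CACGTG and related sites and raises transcription of genes for growth, ribosome production and metabolism. MXD1, MXI1 (also called MXD2), MXD3, MXD4 and MNT pair with MAX on the same sites and recruit the SIN3 histone deacetylase complex, which lowers transcription. MGA pairs with MAX and also carries a T-box, and it sits in a polycomb repressive complex of the PRC1.6 type. MLX is a MAX-like protein that pairs with MLXIP (MondoA), a factor that responds to glucose phosphates, and it can pair with MXD1, MXD4 and MNT as well. PHF12 and SUDS3 are both subunits of SIN3 complexes, the corepressor that the MXD proteins and MNT recruit. The study compared each knockdown with the control siRNA, and its design also allows the knockdowns to be set against each other.

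The E-box itself was searched for in the promoters of the network's own genes, because the factors encoded there bind it. RefSeq promoters (GRCh38.p14, from 250 bases before to 50 bases after each annotated start) were at hand for 9 of the 10 genes, all but MYC. CACGTG is its own reverse complement, so 1 search covers both strands. It was present in promoters of MXD4, MNT and MLX, 3 of 14 windows, beside 9.2% of the windows of all tested genes and 7.3% of all RefSeq windows. Counted by gene, with any window, this is 3 of 9 members, beside 12.4% of 11516 tested genes. The stretches around it are given 5′ to 3′ on the strand of the gene, with the E-box in capitals. Its first base lies at -238 from the RefSeq start in MXD4, at -193 in MNT and at -50 in MLX.
MXD4, chr4:2262330-2262359, minus strand: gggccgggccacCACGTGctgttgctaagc
MNT, chr17:2401236-2401265, minus strand: ccctgcccgggcCACGTGtgcgcgcgccgg
MLX, chr17:42567038-42567067, plus strand: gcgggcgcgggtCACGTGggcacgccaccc
MXI1, MAX and MLXIP hold no CACGTG in these windows. A match is a description of the letters and not of binding.

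Libraries held 37962926 to 50946148 counts, and mitochondrial genes took 4.98% to 5.67% of them. PHF12 stood at 27.9, 24.5 and 28.3 CPM (counts per 1000000 after TMM scaling) in the PHF12 knockdown, against 50.3, 50.5 and 48.8 CPM in controls. SUDS3 stood at 21.1, 22.3 and 22.9 CPM in the SUDS3 knockdown, against 107.5, 114.0 and 111.8 CPM in controls. Each target was also off its control level in the other knockdown: PHF12 rose with the SUDS3 siRNA (log2 fold change 0.30, SE 0.06, edgeR adjusted p = 7.19e-05), and SUDS3 fell with the PHF12 siRNA (log2 fold change -0.46, SE 0.05, edgeR adjusted p = 6.83e-10). Markers of HEK293T cells were present, with 539.5 to 772.4 CPM of VIM and 69.0 to 84.4 CPM of KRT18, though PAX2 was low at 0.951 to 2.32 CPM. NEFM lay between 235.8 and 373.9 CPM and NEFL between 83.5 and 114.1 CPM. Other markers were less even between groups. CDH2 averaged 73.7 CPM in the PHF12 knockdown and 42.2 CPM in the SUDS3 knockdown, against 95.5 CPM in controls. KRT8 averaged 35.0 and 12.9 CPM in these knockdowns, against 19.7 CPM in controls. Of markers of other cells, the leukocyte gene PTPRC had no count in any library, ALB, PECAM1 and MYH6 stayed at or below 0.37 CPM, and the collagen gene COL1A1 lay between 11.2 and 22.4 CPM.

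**Figure D1:**
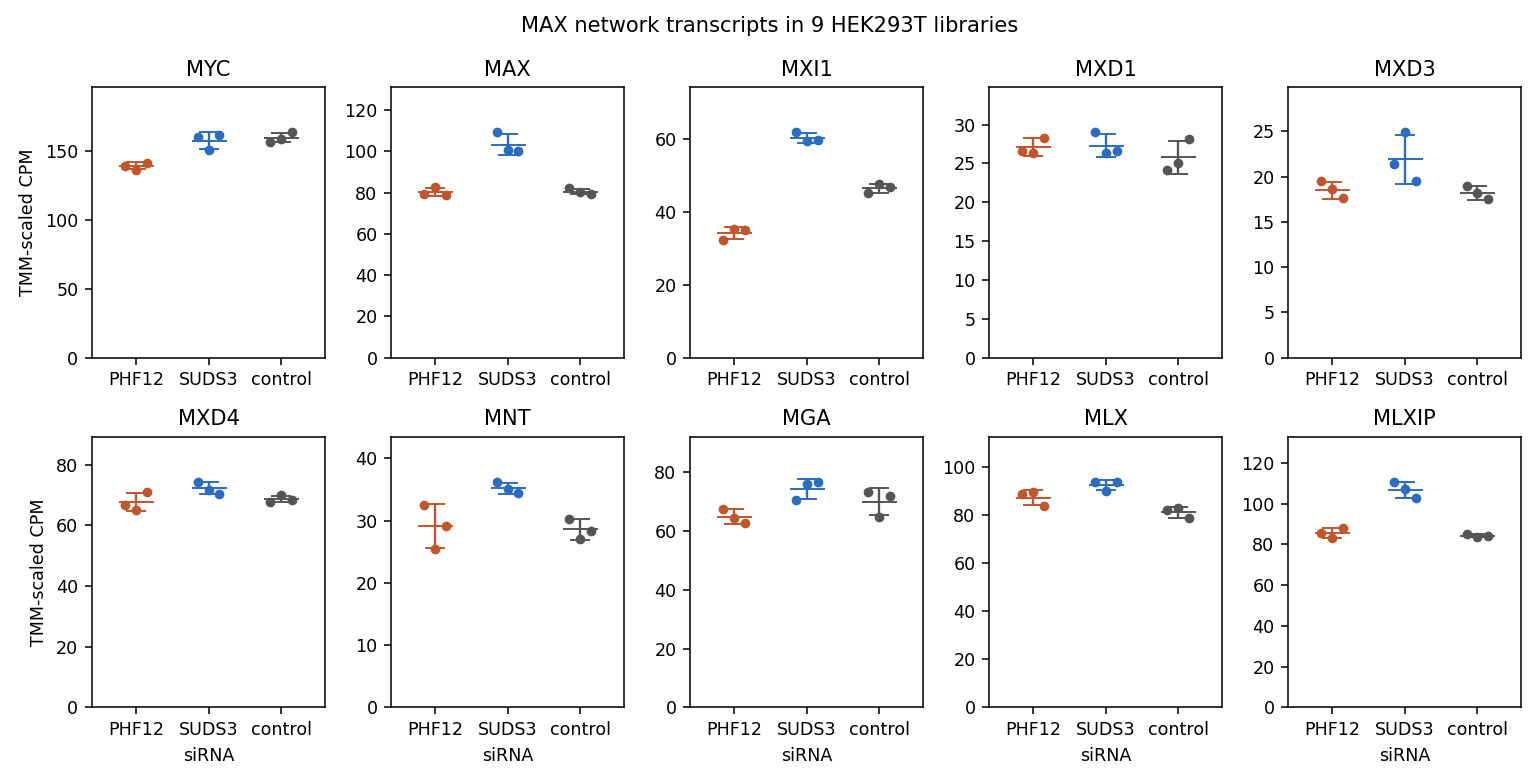
TMM-scaled CPM of each network gene (y axis, from 0) by siRNA (x axis), with a point for each of the 3 libraries and a bar for the mean ± SD. MXI1 and MLX have 3 groups that do not overlap, and MXI1 is lowest with the PHF12 siRNA at 32.4 to 35.2 CPM and highest with the SUDS3 siRNA at 59.4 to 61.8 CPM.

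With the PHF12 siRNA, MYC and the repressor MXI1 fell, and the other 8 members did not pass the test. The test was edgeR's quasi-likelihood F-test, with Benjamini-Hochberg adjustment over the 18088 genes and a threshold of 0.05. Falls made up 17.1% of all tested genes in this comparison and rises 14.8%, so 2 falls among 10 members are near the background. Of the calls, 46.4% were rises, and 56.9% were rises under upper-quartile scaling. The members' median log2 fold change was 0.01, beside a median of -0.004 over all genes. No member passed as a rise with edgeR, where 1 had an unadjusted p under 0.05. DESeq2 called 1 rise, MLX, and limma on TPM called none, with 1 at an unadjusted p under 0.05. Falls at an unadjusted p under 0.05 numbered 3 with edgeR, 2 with DESeq2 and 2 with limma on TPM.

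MYC, the activating factor of the network, encoded on chromosome 8 (ENSG00000136997), had 139.2, 136.3 and 141.4 CPM in the PHF12 knockdown, against 156.5, 158.6 and 163.3 CPM in controls. All 3 knockdown libraries lay below all 3 controls. The difference was 12.9% of the control level (log2 fold change -0.20, SE 0.04, edgeR adjusted p = 6.96e-05). In these bulk libraries, less RNA per cell and fewer cells with the transcript cannot be told apart.

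MXI1, a MAX partner that recruits SIN3 (ENSG00000119950, GRCh38 chromosome 10, 110207605 to 110287365, plus strand), had 32.4, 35.2 and 34.9 CPM in the PHF12 knockdown, against 45.2, 47.7 and 46.7 CPM in controls. The groups did not overlap, and all 3 knockdown libraries were below the lowest control. MXI1 fell by 0.45 on the log2 scale (SE 0.06, edgeR adjusted p = 8.41e-08), a larger fall than that of MYC in this comparison, although the difference between the genes was not tested.

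MLX and MGA came next by p. MLX had 88.7, 89.4 and 83.6 CPM in the PHF12 knockdown, against 82.0, 82.7 and 78.6 CPM in controls, a log2 fold change of 0.11 (SE 0.05, edgeR adjusted p = 0.0737) with no overlap between the groups. MGA had 67.6, 64.3 and 62.8 CPM in the PHF12 knockdown, against 73.3, 64.8 and 72.0 CPM in controls, a log2 fold change of -0.11 (SE 0.05, edgeR adjusted p = 0.121), and 1 knockdown library lay inside the control range. The remaining 6 genes were nearer to 0, with log2 fold changes from -0.02 for MXD4 to 0.07 for MXD1. MAX, on which MYC and the repressors depend for binding DNA, averaged 80.3 ± 2.12 CPM in the PHF12 knockdown and 80.5 ± 1.33 CPM in controls (SD, n = 3 each), with a log2 fold change whose 95% interval ran from -0.09 to 0.09.

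With the SUDS3 siRNA, 6 of the 10 members rose: MAX, MXI1, MNT, MXD3, MLX and MLXIP. MYC, MXD1, MXD4 and MGA did not pass. Rises made up 19.6% of all tested genes in this comparison and falls 19.2%. A minimum count of 40 kept all 10 members and gave a larger share, with 3613 rises among 14547 genes. The members' median log2 fold change was 0.23, beside -0.02 over all genes. No member passed as a fall or had an unadjusted p under 0.05 as a fall, with edgeR, DESeq2 or limma on TPM. Fold changes of the 6 genes were modest, from 0.19 for MLX to 0.38 for MXI1 on the log2 scale.

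MAX (ENSG00000125952, chromosome 14, 65006174 to 65102695, minus strand) had 109.2, 100.5 and 100.0 CPM in the SUDS3 knockdown, against 82.0, 80.2 and 79.4 CPM in controls. Every SUDS3 knockdown library was above every control. MAX rose by 0.36 on the log2 scale (SE 0.05, edgeR adjusted p = 6.19e-08).

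Among the repressors that recruit SIN3, MXI1 had 61.8, 59.4 and 59.8 CPM in the SUDS3 knockdown, against 45.2, 47.7 and 46.7 CPM in controls. It rose by 0.38 on the log2 scale (SE 0.06, edgeR adjusted p = 1.17e-06), and the groups did not overlap. MNT, a broadly expressed MAX partner (ENSG00000070444, chromosome 17, 2384060 to 2401118, minus strand), had 36.2, 35.0 and 34.5 CPM in the SUDS3 knockdown, against 30.3, 27.0 and 28.4 CPM in controls. MNT too had all 3 knockdown libraries above the controls, with a log2 fold change of 0.30 (SE 0.08, edgeR adjusted p = 0.00144). MXD3, which is known from proliferating cells (ENSG00000213347, chromosome 5, 177301461 to 177312757, minus strand), had 21.4, 24.9 and 19.5 CPM in the SUDS3 knockdown, against 19.0, 18.2 and 17.5 CPM in controls. Its log2 fold change was 0.27 (SE 0.09, edgeR adjusted p = 0.016), and the library with 24.9 CPM stood apart. Without that library the log2 fold change of MXD3 was 0.18 and its edgeR adjusted p 0.164, and without control replicate 3 they were 0.24 and 0.0575.

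MXD1 and MXD4 did not pass, unlike MXI1, MNT and MXD3, and the difference between these genes was not tested. MXD1 (ENSG00000059728, chromosome 2, 69897688 to 69942945, plus strand) had 29.0, 26.3 and 26.6 CPM in the SUDS3 knockdown, against 24.1, 25.0 and 28.2 CPM in controls, and the ranges overlapped. MXD4 (ENSG00000123933, chromosome 4, 2247432 to 2262294, minus strand) had 74.3, 71.7 and 70.4 CPM in the SUDS3 knockdown, against 67.8, 69.9 and 68.4 CPM in controls. The MXD4 ranges were narrowly apart, with a log2 fold change of 0.07 (SE 0.05, edgeR adjusted p = 0.281) and a 95% interval from -0.03 to 0.17. For MXD1 the log2 fold change was 0.08 and the interval ran from -0.07 to 0.23. Rises of the size seen in MXI1 lay outside the intervals of MXD1 and MXD4. The intervals of MXD3 (0.09 to 0.44) and MNT (0.15 to 0.45) overlapped both.

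In the MLX branch, MLXIP (ENSG00000175727, chromosome 12, 122078722 to 122147347, plus strand) had 110.7, 107.1 and 102.6 CPM in the SUDS3 knockdown, against 85.3, 83.7 and 84.0 CPM in controls. The control libraries lay close together and every knockdown library was above them, with a log2 fold change of 0.34 (SE 0.04, edgeR adjusted p = 8.07e-08). MLX (ENSG00000108788, chromosome 17, 42567068 to 42573239, plus strand) had 93.6, 89.8 and 93.7 CPM in the SUDS3 knockdown, against 82.0, 82.7 and 78.6 CPM in controls. It rose by 0.19 on the log2 scale (SE 0.05, edgeR adjusted p = 0.00101), without overlap. The transcripts of both partners of this dimer were thus higher in all 3 SUDS3 knockdown libraries than in any control.

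MYC itself had 160.0, 150.2 and 161.3 CPM in the SUDS3 knockdown, against 156.5, 158.6 and 163.3 CPM in controls, with overlapping ranges. Its log2 fold change was -0.02 (SE 0.04, edgeR adjusted p = 0.717), and the 95% interval of -0.10 to 0.05 leaves out a fall of the size measured with the PHF12 siRNA. MGA (ENSG00000174197, chromosome 15, 41621224 to 41773081, plus strand) had 70.4, 76.0 and 76.7 CPM in the SUDS3 knockdown, against 73.3, 64.8 and 72.0 CPM in controls, a log2 fold change of 0.09 (SE 0.05, edgeR adjusted p = 0.206).

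**Figure D2:**
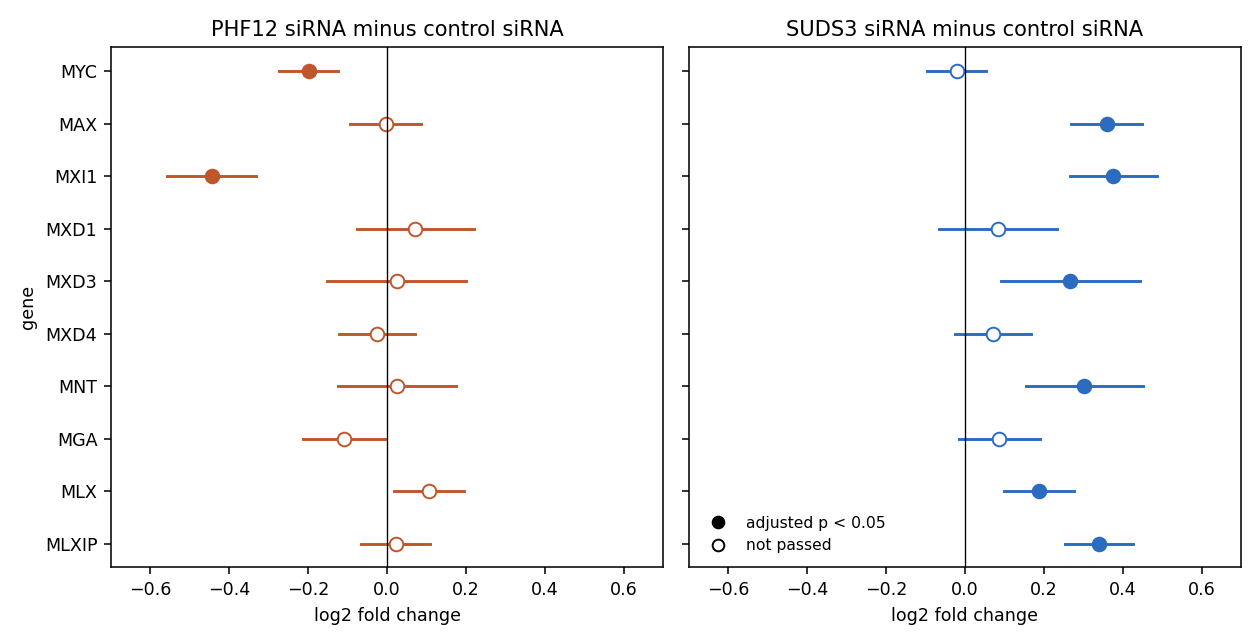
Log2 fold change of each network gene (x axis) against control siRNA, with the PHF12 siRNA in the left panel and the SUDS3 siRNA in the right, each with its 95% interval. Filled points passed an edgeR adjusted p of 0.05: MYC and MXI1, both below 0, on the left, and 6 genes between 0.19 and 0.38 on the right.

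Both knockdowns were set against the same 3 control libraries, so likeness between those comparisons is in part built in. The direct comparison of the SUDS3 knockdown with the PHF12 knockdown does not take the controls as its reference. All 9 libraries were fitted together, so the controls still entered its filter, scaling and estimate of the spread. A fit of the 6 knockdown libraries alone also had 7 members passed, all as rises. In the fit of all 9 libraries, 7 of the 10 members were higher with the SUDS3 siRNA (MYC, MAX, MXI1, MXD3, MNT, MGA and MLXIP). Rises made up 22.7% of all tested genes there and falls 21.1%. At a minimum count of 40, which kept all 10 members, the share of rises was larger, at 4084 of 14547 genes. Of all calls in this comparison 51.8% were rises, and 41.2% were rises under upper-quartile scaling. The members' median log2 difference was 0.22, beside -0.01 over all genes. No member was lower with the SUDS3 siRNA by edgeR, DESeq2 or limma on TPM, at an adjusted or an unadjusted p under 0.05.

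MXI1 had the largest difference of the 10. Its libraries with the SUDS3 siRNA, at 59.4 to 61.8 CPM, and those with the PHF12 siRNA, at 32.4 to 35.2 CPM, lie on opposite sides of the controls. The log2 difference was 0.82 (SE 0.06, edgeR adjusted p = 1.13e-14), a ratio of 1.77. MAX differed by 0.36 (SE 0.05, edgeR adjusted p = 2.4e-08) and MLXIP by 0.32 (SE 0.04, edgeR adjusted p = 1.49e-07) on the same scale.

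MNT had 36.2, 35.0 and 34.5 CPM in the SUDS3 knockdown, against 32.5, 25.5 and 29.2 CPM in the PHF12 knockdown. The PHF12 knockdown libraries of MNT were the more spread out, and the log2 difference was 0.28 (SE 0.08, edgeR adjusted p = 0.00248). MYC was higher by 0.18 (SE 0.04, edgeR adjusted p = 0.000176) with the SUDS3 siRNA, again with no overlap between the groups. MGA, which did not pass in either knockdown against control, differed between the knockdowns by 0.20 (SE 0.05, edgeR adjusted p = 0.00225), and its 3 libraries with the SUDS3 siRNA were all above those with the PHF12 siRNA. MXD3 differed by 0.24 (SE 0.09, edgeR adjusted p = 0.0241). That call ended without SUDS3 knockdown replicate 2 (log2 difference 0.14, edgeR adjusted p = 0.249), without PHF12 knockdown replicate 2 (0.25 and 0.0534) or replicate 3 (0.21 and 0.103), and under upper-quartile scaling (0.18 and 0.11).

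MLX, MXD4 and MXD1 did not pass between the knockdowns. The log2 difference of MLX was 0.08 with a 95% interval of -0.01 to 0.17, and that of MXD1 was 0.01 with an interval of -0.14 to 0.16. MLX is therefore the member that rose with the SUDS3 siRNA and was not shown to differ between the siRNAs.

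To compare levels between genes, counts were divided by the merged length of all annotated exons of each gene and scaled to 1000000 per library, without TMM. The transcripts in use may be shorter than this length, so the order and the sums below depend on it. In the deposited TPM, the gene lengths implied by the counts bore no relation to annotated exon lengths, so those values were not used between genes. On the length-scaled measure MYC was the most abundant member in controls, at 183.9 ± 6.65, followed by MLX at 65.8 ± 1.32, MAX at 62.9 ± 0.162, MXI1 at 34.9 ± 1.34 and MXD4 at 33.7 ± 0.836 (SD, n = 3 each). MLXIP followed at 21.0 ± 0.184, MXD1 at 14.0 ± 1.36, MGA at 13.7 ± 0.874, MXD3 at 12.2 ± 0.32 and MNT at 11.3 ± 0.57. Neighbours in this order whose ranges overlapped were MXI1 with MXD4, and MXD1 with MGA. On this measure MYC transcripts were thus the most abundant and exceeded those of MAX in every library.

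The order shifted with the siRNA in the middle of the list. With the PHF12 siRNA, MXI1 (25.4 ± 1.18) stood below MXD4 (32.8 ± 1.56), and with the SUDS3 siRNA MXI1 (46.7 ± 0.813) stood above it (36.4 ± 0.87), on the length-scaled measure and without overlap in either group. MAX was above MLX with the SUDS3 siRNA, at 83.1 ± 3.84 beside 77.3 ± 1.68, and below it with the PHF12 siRNA, at 62.2 ± 1.51 beside 70.3 ± 2.35.

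Summed over the 5 repressors that recruit SIN3 (MXI1, MXD1, MXD3, MXD4 and MNT), the length-scaled level was 96.5, 94.2 and 99.3 in the PHF12 knockdown and 130.6, 128.8 and 124.5 in the SUDS3 knockdown, against 103.5, 106.7 and 108.4 in controls. The 3 groups did not overlap. Without MXI1 the sum of the other 4 was 72.5, 68.1 and 73.2 in the PHF12 knockdown and 83.0, 82.7 and 78.2 in the SUDS3 knockdown, against 70.1, 70.9 and 72.9 in controls. The other 4 thus overlapped the controls with the PHF12 siRNA, where MXI1 carried the lower sum, and were above every control with the SUDS3 siRNA. The ratio of the sum of all 5 to MYC was 0.607, 0.606 and 0.612 in the PHF12 knockdown and 0.691, 0.72 and 0.649 in the SUDS3 knockdown, against 0.583, 0.583 and 0.568 in controls. The ratio was above every control in both knockdowns. With the PHF12 siRNA the repressor sum and MYC were both below every control, and with the SUDS3 siRNA the sum was above every control while MYC overlapped them. These sums are descriptions of RNA, rest on annotated exon lengths and were given no test.

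**Figure D3:**
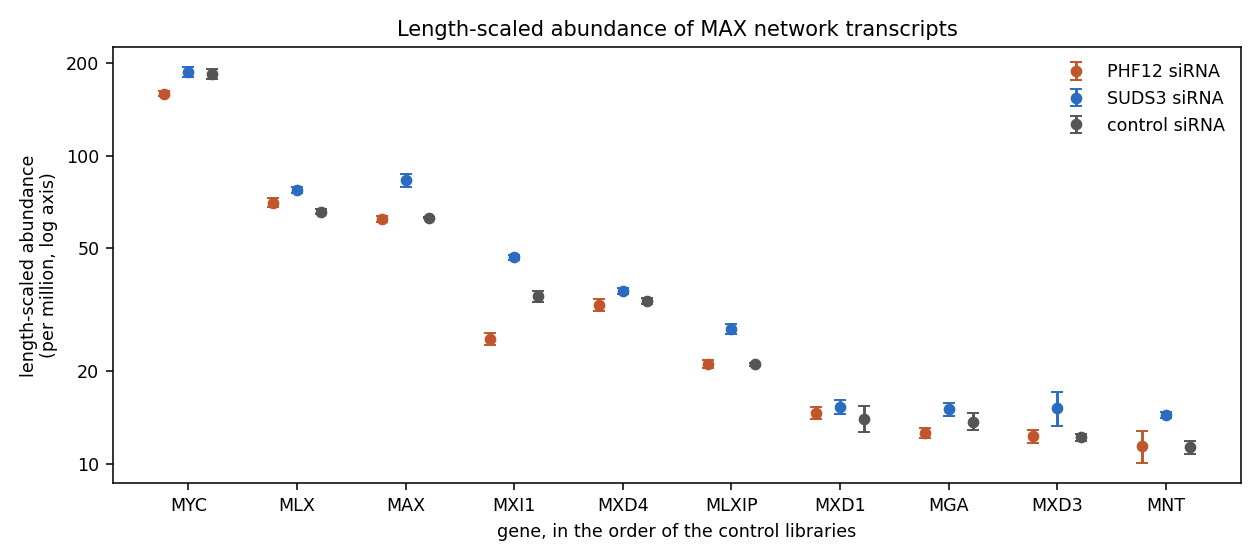
Length-scaled abundance, with each library summing to 1000000 (y axis, log scale), of the 10 genes in the order of the control libraries (x axis), as mean ± SD of 3 libraries for each siRNA. MYC leads at 158.9 to 186.6, and MXI1 lies above MXD4 with the SUDS3 siRNA and below it with the PHF12 siRNA.

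Several members share exon bases with other genes, and whether strand was used in counting is not stated in the labels or notes. MXD3 shares 926 bases with RAB24 on the same strand and 1158 with PRELID1 on the opposite one. RAB24 had a log2 fold change of 0.25 with the SUDS3 siRNA (edgeR adjusted p = 0.131) and PRELID1 one of -0.01 (edgeR adjusted p = 0.898), though RAB24 passed there with limma on log2(TPM + 1) (0.26, adjusted p = 0.0447). Between the knockdowns, where MXD3 was higher with the SUDS3 siRNA, RAB24 was higher by 0.42 (edgeR adjusted p = 0.00788) and PRELID1 by 0.10 (edgeR adjusted p = 0.00523) on the log2 scale. MLX shares 770 bases with PSMC3IP on the opposite strand, which rose with the PHF12 siRNA (log2 fold change 0.57, edgeR adjusted p = 1.48e-11) and fell with the SUDS3 siRNA (-0.28, edgeR adjusted p = 3.87e-05), where MLX rose. The part of these neighbours in the values of MXD3 and MLX was not tested. MXD1 shares 237 bases with SNRNP27 on the same strand, which did not pass in any of the 3 comparisons. MAX, MXI1, MNT and MGA share bases only with non-coding genes on the opposite strand, and MXD4 with a microRNA gene on its own strand.

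The wider pathway was described through 8 lists of genes known to act with the network, chosen with earlier results of these data known. Of all tested genes, 14.8% rose and 17.1% fell with the PHF12 siRNA. With the SUDS3 siRNA 19.6% rose and 19.2% fell. A list count near these shares describes the background and not the list. Of 3 close relatives of the members, 1 fell with the PHF12 siRNA and 2 rose with the SUDS3 siRNA. MYCL, a MYC paralog, fell to 6.03 ± 0.905 CPM in the PHF12 knockdown, against 9.25 ± 0.621 CPM in controls (SD, n = 3 each; log2 fold change -0.61, SE 0.12, edgeR adjusted p = 0.000167). In the SUDS3 knockdown MYCL stood at 11.6 ± 0.265 CPM (log2 fold change 0.33, SE 0.12, edgeR adjusted p = 0.0285). That call of MYCL did not hold without any 1 of the 3 SUDS3 knockdown libraries or without control replicate 2 or 3, with edgeR adjusted p from 0.0529 to 0.0984. MLXIPL, known as ChREBP, the glucose-responsive relative of MLXIP, rose to 16.1 ± 1.05 CPM in the SUDS3 knockdown, against 10.8 ± 1.56 CPM in controls (log2 fold change 0.57, SE 0.11, edgeR adjusted p = 4.25e-05). MYCN was barely counted, at 0.192 ± 0.114 CPM in the PHF12 knockdown and 0.445 ± 0.161 CPM in controls, and did not pass.

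Genes that MYC is known to activate, with roles in ribosome production, nucleotide and polyamine synthesis and glycolysis, gave 2 rises, 15 falls and 13 genes not passed of 30 with the PHF12 siRNA. Shares of all tested genes were 14.8% rises and 17.1% falls. A minimum count of 40 kept all 30 listed genes and the same counts, with 2896 rises and 3107 falls among 14547 genes. The median log2 fold change of the list was -0.08, beside -0.004 over all genes. The 2 smallest p belonged to CCND2, a G1 cyclin, at 70.9 ± 3.05 CPM in the PHF12 knockdown and 129.7 ± 1.12 CPM in controls (log2 fold change -0.87), and IMPDH2, the rate-limiting enzyme of guanine nucleotide synthesis, at 415.1 ± 0.896 CPM in the PHF12 knockdown and 600.8 ± 4.56 CPM in controls (log2 fold change -0.53). Their edgeR adjusted p-values were 1.65e-18 for CCND2 and 3.24e-18 for IMPDH2.

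With the SUDS3 siRNA, where the MYC transcript did not pass, the same list had 7 rises, 12 falls and 11 genes not passed. Its median was -0.06. The shares over all tested genes were 19.6% rises and 19.2% falls. IMPDH2 stood at 499.8 ± 7.45 CPM in the SUDS3 knockdown (log2 fold change -0.27, SE 0.03, edgeR adjusted p = 4.46e-10). NPM1, a nucleolar histone chaperone, averaged 2242.3 ± 104.2 CPM in the SUDS3 knockdown and 2655.7 ± 31.6 CPM in controls (log2 fold change -0.24, SE 0.03, edgeR adjusted p = 1.37e-09).

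Between the knockdowns, 15 of the 30 MYC-activated genes were higher with the SUDS3 siRNA than with the PHF12 siRNA, 8 were lower and 7 did not pass. Among all tested genes 22.7% were higher and 21.1% lower. The median log2 difference of the list was 0.07, beside -0.01 over all genes.

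Genes that MYC is known to repress moved in both directions. With the PHF12 siRNA 2 of 10 rose and 3 fell, beside 14.8% and 17.1% of all tested genes. With the SUDS3 siRNA 4 rose and 3 fell, beside 19.6% and 19.2%. Without control replicate 1 only 3 of them passed with the PHF12 siRNA, and without control replicate 2 only 4 with the SUDS3 siRNA. CDKN1B, which encodes the CDK inhibitor p27, fell to 40.9 ± 1.96 CPM in the PHF12 knockdown and rose to 74.4 ± 3.04 CPM in the SUDS3 knockdown, against 54.3 ± 1.42 CPM in controls. The log2 fold changes were -0.41 (SE 0.06, edgeR adjusted p = 1.79e-07) with the PHF12 siRNA and 0.46 (SE 0.05, edgeR adjusted p = 1.17e-08) with the SUDS3 siRNA. NDRG1, a stress-responsive gene, rose with the PHF12 siRNA (log2 fold change 0.26), and the CDK inhibitor gene CDKN2C rose with the SUDS3 siRNA (0.50).

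Targets of the MLX dimers with MLXIP and its relative numbered 4. The background was 19.6% rises and 19.2% falls with the SUDS3 siRNA, and 14.8% and 17.1% with the PHF12 siRNA. With the SUDS3 siRNA, where MLX and MLXIP rose, TXNIP, HK2 and PFKFB3 rose and ARRDC4 fell, with a median log2 fold change of 0.31. TXNIP, an arrestin-like inhibitor of glucose uptake, averaged 78.3 ± 3.03 CPM in the SUDS3 knockdown and 41.2 ± 4.05 CPM in controls (log2 fold change 0.93, SE 0.06, edgeR adjusted p = 4.21e-15). ARRDC4, its close relative, had a log2 fold change of -0.70. PFKFB3, a regulator of glycolysis, had one of 0.14, and its call ended without control replicate 3 (0.09, edgeR adjusted p = 0.166), without SUDS3 knockdown replicate 2 (0.0585) or 3 (0.0743) and under upper-quartile scaling (0.0838). HK2, which encodes hexokinase 2, stood at 177.3 ± 2.98 CPM in the SUDS3 knockdown and 94.2 ± 4.0 CPM in the PHF12 knockdown, against 126.1 ± 1.68 CPM in controls. In the PHF12 knockdown HK2 fell (log2 fold change -0.42, edgeR adjusted p = 7.43e-11), ARRDC4 rose (0.32, edgeR adjusted p = 2.26e-05) and TXNIP did not pass (-0.03, edgeR adjusted p = 0.742). PFKFB3 did not pass there either (0.11, edgeR adjusted p = 0.0718), but did in 7 of the 19 alternatives, among them DESeq2 (0.12, adjusted p = 0.0135), upper-quartile scaling (0.15, edgeR adjusted p = 0.0136) and the fit without control replicate 2 (0.15, edgeR adjusted p = 0.0393). HK2 and ARRDC4 moved in opposite directions within each knockdown.

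Cofactors of MYC gave 4 rises and 2 falls of 12 with the PHF12 siRNA, beside 14.8% and 17.1% of all tested genes. They gave 3 rises and 4 falls with the SUDS3 siRNA, beside 19.6% and 19.2%. TRRAP, the scaffold of the histone acetyltransferase complexes that MYC recruits, fell to 105.2 ± 2.5 CPM in the PHF12 knockdown, against 164.8 ± 1.94 CPM in controls (log2 fold change -0.65, SE 0.04, edgeR adjusted p = 1.02e-16). RUVBL1, an ATPase of the same complexes, fell by 0.31 on the log2 scale there. With the SUDS3 siRNA the largest falls by p were those of SMARCB1, a SWI/SNF subunit that binds MYC (log2 fold change -0.43), and of the acetyltransferase KAT5 (-0.40).

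Factors that control the stability of the MYC protein gave 5 rises and 3 falls of 13 with the PHF12 siRNA. Shares of all tested genes were 14.8% and 17.1%. With the SUDS3 siRNA these factors gave 3 rises and 1 fall, beside 19.6% and 19.2%. SKP2, a ubiquitin ligase subunit for MYC, fell to 95.5 ± 5.31 CPM in the PHF12 knockdown, against 135.2 ± 4.46 CPM in controls (log2 fold change -0.50, SE 0.04, edgeR adjusted p = 5.63e-12). FBXW7, the ligase subunit that recognises phosphorylated MYC, rose to 47.3 ± 3.42 CPM in the SUDS3 knockdown, against 33.7 ± 3.59 CPM in controls (log2 fold change 0.49, SE 0.07, edgeR adjusted p = 4.86e-07). SET, an inhibitor of the phosphatase that acts on MYC, fell with the SUDS3 siRNA (log2 fold change -0.15). MYC protein was not measured.

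Partners of MGA in its polycomb complex gave 3 rises and 3 falls of 12 with the PHF12 siRNA, beside 14.8% and 17.1% of all tested genes. They gave 2 rises and 4 falls with the SUDS3 siRNA, beside 19.6% and 19.2%. RYBP, which joins the RING1 ligase to such complexes, was lower in both, at 49.3 ± 2.58 CPM in the PHF12 knockdown and 47.0 ± 3.54 CPM in the SUDS3 knockdown, against 86.5 ± 5.19 CPM in controls. Its log2 fold changes were -0.81 (SE 0.06, edgeR adjusted p = 5.31e-14) with the PHF12 siRNA and -0.88 (SE 0.06, edgeR adjusted p = 8.42e-15) with the SUDS3 siRNA, against the same controls. TFDP1, the dimer partner of E2F6 in the complex, fell by 0.21 on the log2 scale in the SUDS3 knockdown.

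Of the SIN3 core, the corepressor that the MXD proteins and MNT recruit, HDAC1 rose with the PHF12 siRNA (log2 fold change 0.56, edgeR adjusted p = 2.08e-17). The other 3 of 4 genes did not pass (2 passed without PHF12 knockdown replicate 2). Of all tested genes 14.8% rose and 17.1% fell there. SIN3A, whose protein binds the MXD repressors directly, averaged 134.5 ± 2.07 CPM in the PHF12 knockdown and 127.6 ± 3.19 CPM in controls, which did not pass (edgeR adjusted p = 0.128), though it did with DESeq2 (adjusted p = 0.0185) and under upper-quartile scaling (edgeR adjusted p = 0.0164). With the SUDS3 siRNA 3 of the 4 rose, beside 19.6% rises and 19.2% falls among all tested genes. SIN3A stood at 158.6 ± 2.53 CPM in the SUDS3 knockdown (log2 fold change 0.31). SIN3B stood at 82.2 ± 1.81 CPM in the SUDS3 knockdown and 69.0 ± 2.26 CPM in controls (0.25). The rise of HDAC1 was small (0.10, edgeR adjusted p = 0.011), and HDAC2 did not pass (-0.02, edgeR adjusted p = 0.697).

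**Figure D4:**
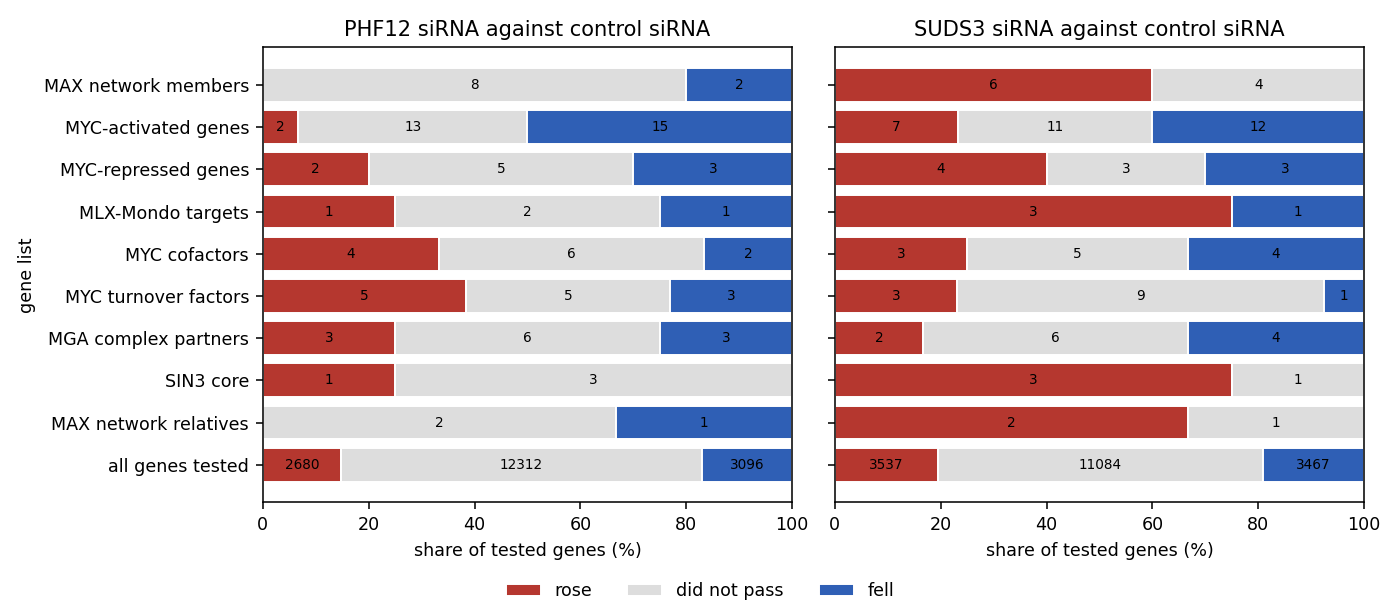
Share of the tested genes of each list (x axis, percent) that rose (left segment), did not pass (middle) and fell (right) against control siRNA, with the PHF12 siRNA in the left panel and the SUDS3 siRNA in the right. Numbers in the bars count genes, and the bottom bar holds all 18088 tested genes. The network members gave 2 falls on the left and 6 rises on the right.

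MXI1 had the smallest p of the 10 members in the F-test over all 3 groups. The 3 protein-coding genes whose log2 CPM over the 9 libraries was most like that of MXI1, of 11720 ranked, were TMEM50A, TMEM123 and ALDH18A1. Each had a Pearson r of 0.995 over libraries that fall into 3 groups and share their siRNAs, which is given as a description only. TMEM123, for example, averaged 134.7 CPM in the PHF12 knockdown and 233.1 CPM in the SUDS3 knockdown, against 179.4 CPM in controls.

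An siRNA can lower other transcripts through short matches of its seed in their 3′ UTRs. No siRNA sequence was at hand for comparison, so whether either siRNA has such a seed was not tested. An earlier scan of these same fold changes had picked the hexamer AATCAC for falls with the PHF12 siRNA and TACATT for falls with the SUDS3 siRNA. In the longest annotated 3′ UTR of each member, on the transcript strand only, AATCAC was present in 5 of 10 (MYC, MXI1, MGA, MLX and MLXIP), and in 30.7% of 13770 tested protein-coding genes. MYC and MXI1, the members that fell with the PHF12 siRNA, each hold 1 copy, while MGA, with 2 copies, and MLX and MLXIP, with 1 each, did not pass there. Since the hexamer was picked from falls in this same comparison, the carriers that fell are in part built in. TACATT was present in MYC, MXI1, MXD1, MGA and MLXIP, and in 40.9% of those genes. Of its 5 carriers, MXI1, with 2 copies, and MLXIP, with 1, rose with the SUDS3 siRNA. The shares of genes with either hexamer take no account of 3′ UTR length, which ran from 476 bases in MYC to 5801 in MGA. Members and all genes are therefore not compared at like lengths. The sites in MXI1 are shown because that gene carries both hexamers and moved most, with the hexamer in capitals (GRCh38, plus strand).
AATCAC site of MXI1, chr10:110285209-110285232: tattggaaaAATCACaatttttaa
First TACATT site of MXI1, chr10:110285323-110285346: tgctcatacTACATTgagtagaca
Second TACATT site of MXI1, chr10:110286718-110286741: tcttggtcaTACATTacgcctcaa
The part of these sites in the values of MXI1 and MYC was not tested.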

How the data were processed

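The labels gave the siRNA of each of the 9 HEK293T libraries. Per the submitters' processing notes, the tools were HISAT2 2.1.0, HTSeq and Trimmomatic 0.36, on GRCh38. The authors deposited raw counts for 58735 genes and TPM for 58734. Of the counts above 0, 96.1% are multiples of 4, so counting error may be larger than the totals imply, and counts divided by 4 were an alternative. In the deposited TPM, lengths implied by count and TPM had a Spearman rho of 0.008 with GENCODE 29 exon lengths over 9444 genes with at least 400 counts in every library. TPM was meant for levels between genes. Counts per exon length, scaled to 1000000 per library, replaced it, and TPM served only in alternative fits within genes.

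The model was edgeR 4.0.16 under R 4.3.3 (TMM, filterByExpr with a minimum count of 10, robust quasi-likelihood, 3 group means, all 9 libraries), after tests on simulated counts. F-tests gave 3 contrasts, adjusted by Benjamini-Hochberg over 18088 genes. Intervals are 95%, from the SE. Symbols, exons and 3′ UTRs came from GENCODE 29, which holds every gene identifier, and promoters from RefSeq. The members and lists were chosen with earlier results of these data known. Named genes are the 10 members, the siRNA targets, overlapping genes, the 2 of each list with the smallest p in each knockdown and the 3 most like the member with the smallest p over the 3 groups, of which 1 is not reported here. PFKFB3, ARRDC4 in the SUDS3 knockdown and TXNIP in the PHF12 knockdown were named after their values were seen. Alternatives were DESeq2 1.42.0, its size factors or upper-quartile scaling in edgeR, limma 3.58.1 on log2(TPM + 1) and log2(TPM + 0.1), other low-count filters, fits of 6 libraries, a replicate block and leaving out each library.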

Additional observations from a re-analysis of the deposited data

How the results depend on the processing

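Over 19 alternatives (9 leave out 1 library, 10 change another choice), the number of members that passed was 2 to 3 in the PHF12 knockdown, 5 to 6 in the SUDS3 knockdown and 6 to 7 between the knockdowns, and no member's fold change reversed its call. The calls of MYC and MXI1 in the PHF12 knockdown and of MAX, MXI1, MNT, MLX and MLXIP in the SUDS3 knockdown held in all 19. In the PHF12 knockdown MLX passed with DESeq2 (log2 fold change 0.12, adjusted p = 0.0114), with its size factors in edgeR (0.12, 0.0477), under upper-quartile scaling (0.14, 0.0125) and without PHF12 knockdown replicate 3 (0.14, 0.0424). MGA passed there without control replicate 2 (-0.16, 0.0316). The losses of MXD3 stand beside its values, and the cause of these changes was not tested. Counts of list genes that passed stayed within 1.5 times in 444 of 456 cases. The SIN3 core had 2 genes passed in the PHF12 knockdown, against 1, with DESeq2, under upper-quartile scaling and without PHF12 knockdown replicate 2 (1 to 2 over left-out libraries). The relatives had 1 passed in the SUDS3 knockdown, against 2, with limma on either TPM scale (1 to 2 over left-out libraries). MYC-repressed genes passed numbered 3 to 5 over left-out libraries in the PHF12 knockdown and 4 to 8 in the SUDS3 knockdown. The replicate block left 2, 6 and 7 members passed in the 3 comparisons and changed no member's call. Deviations from the group means over all tested genes were nearly uncorrelated between libraries with the same replicate number (r from -0.0158 to 0.0304). The numbers were not taken as pairs because the labels do not say what a number marks. These correlations cannot decide whether a number marks a shared batch. Total counts were highest in replicate 2 and lowest in replicate 3 in every group. With 3 libraries a group and counts that are mostly multiples of 4, small differences in the rarer members (MXD3, MNT and MXD1) are the least certain.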

Other observations

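The deposited TPM can misorder the members. Lengths implied by the deposited counts and TPM were scaled so that their median ratio to annotated exon length was 1. On that relative scale the ratio was 0.25 for MXI1 and 0.35 for MNT. It was 2.39 for MAX, 2.47 for MLXIP and 3.52 for MXD1, while MYC, MGA and MLX lay at 1.05 to 1.06. As implied and annotated lengths were unrelated over all genes compared (Spearman rho 0.008), a ratio near 1 does not show a correct length. In controls the deposited TPM put MXI1 at 99.9, 105.3 and 103.4 and MAX at 19.8, 19.3 and 19.2, the reverse of their order by counts per exon length. Over 9444 genes, 36.7% of implied lengths lay within 2-fold of the annotation after this scaling. After each library was divided by its own median, the implied length was the same in every library within 1% for 100.0% of these genes. Ratios between libraries for 1 gene therefore hold up to a factor shared by all genes of a library, which this check does not cover.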
